A study of Homo sapiens with 18 samples.

Results

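The untreated arrays of both cell lines were compared with each other: 3 arrays labelled Jurkat and 3 arrays labelled THP1, chosen by their titles as the control arrays of the T cells and of the monocytes, 6 of 18 arrays in all. Jurkat is an established line of T-cell leukaemia and THP1 an established line of monocytic leukaemia. Both lines had been cultured without graphene for 24 h (0 µg/ml). The other 12 arrays, 3 for each of 4 groups, came from the same lines after 24 h with 50 µg/ml graphene oxide (GO) or aminated graphene oxide (GONH2) and served as a second set of arrays of the same labels. Total RNA was converted to biotin-labelled cRNA, which was hybridised to Illumina HumanHT-12 v4 beadchips. Each label names 1 transformed line in culture. The error behind each p-value is the variation among the 3 arrays of a label. The paper describes its experiments as done in biological and technical triplicate, and the array titles give only a replicate number. The groups are called Jurkat-labelled and THP1-labelled below, because the lineage markers were mixed. Several T-cell genes, such as CD3D and LEF1, were higher under the Jurkat label, but CD3E and CD3G were undetected there and myeloid granule genes and factors were bright. Of 47217 probes, 19455 were detected on at least 3 of the 18 arrays and tested, and they stood for 11130 genes.

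T cells carry a receptor whose signal runs through the CD3 chains and CD247 to the kinases LCK and ZAP70 and the adaptors LAT and LCP2, and their identity rests on factors such as LEF1 and BCL11B. Immature myeloid cells are set up by CEBPA and SPI1 (PU.1) and fill azurophil granules with serine proteases, among them ELANE (elastase), PRTN3 (proteinase 3), CTSG (cathepsin G) and AZU1 (azurocidin). Monocytes add lysozyme (LYZ) and surface receptors that bind antibodies, chemokines and microbial products.

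On these arrays the granule protease genes and the myeloid factors were detected under both labels, while 10 of the 21 T-cell receptor genes with a probe were detected on no Jurkat-labelled array. ELANE had log2 intensities of 13.65, 13.65 and 13.58 on the Jurkat-labelled arrays, against 14.24, 14.57 and 14.74 on the THP1-labelled arrays. The groups did not overlap, and ELANE was lower on the Jurkat-labelled arrays by a log2 difference of -0.89 ± 0.14 (SE, limma adjusted p = 0.00333). That call was lost without THP1 control 2 (adjusted p = 0.0153) and without Jurkat control 1 (0.0144), 2 (0.0142) or 3 (0.0161), with the difference between -0.90 and -0.86. CEBPA stood at 12.40, 12.22 and 12.33 on the Jurkat-labelled arrays and at 12.36, 12.51 and 12.58 on the THP1-labelled arrays. Its groups overlapped, and the difference of -0.17 had a 95% interval of -0.41 to 0.08. SPI1 stood at 10.00, 10.15 and 10.03 on the Jurkat-labelled arrays and at 10.16, 10.12 and 10.22 on the THP1-labelled arrays, with overlapping groups and a difference of -0.11 ± 0.09 (SE).

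CD3D, which belongs to the T-cell receptor complex, had signal above the detection limit on all 3 Jurkat-labelled arrays (7.81, 7.62 and 8.15) and on no THP1-labelled array (4.31, 4.39 and 4.46). It was at least 5.59-fold higher on the Jurkat-labelled arrays (limma adjusted p = 8.82e-06). For a gene not detected on any array of 1 label, the fold is such a lower bound, set against the weakest signal that counted as detected on each array, which lay between 5.23 and 5.53 over the controls. LEF1 stood at 7.62, 7.62 and 7.86 on the Jurkat-labelled arrays and at 5.81, 5.07 and 5.18 on the THP1-labelled arrays, 1 of which detected it. CD247, the zeta chain, was weak on the Jurkat-labelled arrays (5.64, 5.39 and 5.99) and not detected on the THP1-labelled arrays, a difference of at least 1.23-fold (adjusted p = 0.003). CD3E and CD3G, the chains that pair with CD3D, were detected on none of the 18 arrays, and neither were CD5, CD28, CD8A and CD8B on any control array.

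Of 25 genes listed for the T-cell receptor and its signalling, 21 had a probe, 6 were detected on all 3 Jurkat-labelled arrays and 10 on none of them, while 2 were detected on all 3 THP1-labelled arrays and 17 on none. Of the 10 members tested, 7 were higher on the Jurkat-labelled arrays and none lower, against 7.15% of all tested genes called higher and 6.06% called lower. Their median difference was 0.90, or 0.71 with the 3 members known only by a bound set to it, against 0.01 over all genes. CD4, a co-receptor that monocytes also carry, stood at 6.93, 7.00 and 6.90 on the Jurkat-labelled arrays and at 5.28, 5.21 and 5.28 on the THP1-labelled arrays. SH2D1A, an adaptor of lymphocytes, differed by 1.66 ± 0.17 (SE), and the adaptors LCP2 and LAT by 1.07 and 0.67. LCK was detected on 2 of 3 Jurkat-labelled arrays and differed by at least 1.05-fold. The call of LAT was lost without any 1 of the 6 arrays, that of LCP2 without any 1 except THP1 control 2, and that of LCK without THP1 control 2 or 3 or Jurkat control 3. Over all alternatives that tested them, LAT lost its call in 10 of 23, LCP2 in 7 of 23 and LCK in 9 of 21. For LCK these included no background correction, the authors' normalized values and limma-trend. The count of members higher ran from 2 to 9 over the alternatives. The 2 came from the filter of probes detected on all 6 controls. That filter could test no more than the 2 members detected on all 3 THP1-labelled arrays, so it is not a loss of calls. CD2, CD7 and ZAP70 did not pass, with differences of 0.49, 0.74 and -0.25. The summed intensity of the tested members was 970 to 1064 on the Jurkat-labelled arrays and 398 to 430 on the THP1-labelled arrays. In RNA from a whole culture, fewer cells of a type and less RNA per cell cannot be told apart.

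Among transcription factors of the T lineage and of T-cell leukaemia, 9 of 19 were tested, and LEF1 (2.35 ± 0.20, SE) and BCL11B (at least 1.67-fold, adjusted p = 9.67e-05) were higher. PTCRA, the pre-T-cell receptor chain, met the call rule in the other direction, but its signals lay near the detection limit, at 4.77, 4.70 and 4.52 on the Jurkat-labelled arrays, none of which detected it, and at 5.14, 5.32 and 5.29 on the THP1-labelled arrays, 1 of which did. No fold is given for it. The other 6 tested factors did not pass, and the median difference of the list was -0.03, against 0.01 over all genes. The summed intensity of the tested factors was 3350 to 3638 on the Jurkat-labelled arrays and 4273 to 4341 on the THP1-labelled arrays. Among all tested genes, 7.15% were called higher and 6.06% lower. GATA3, TAL1, RAG1, RAG2 and TOX were detected on no control array.

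**Figure D1:**
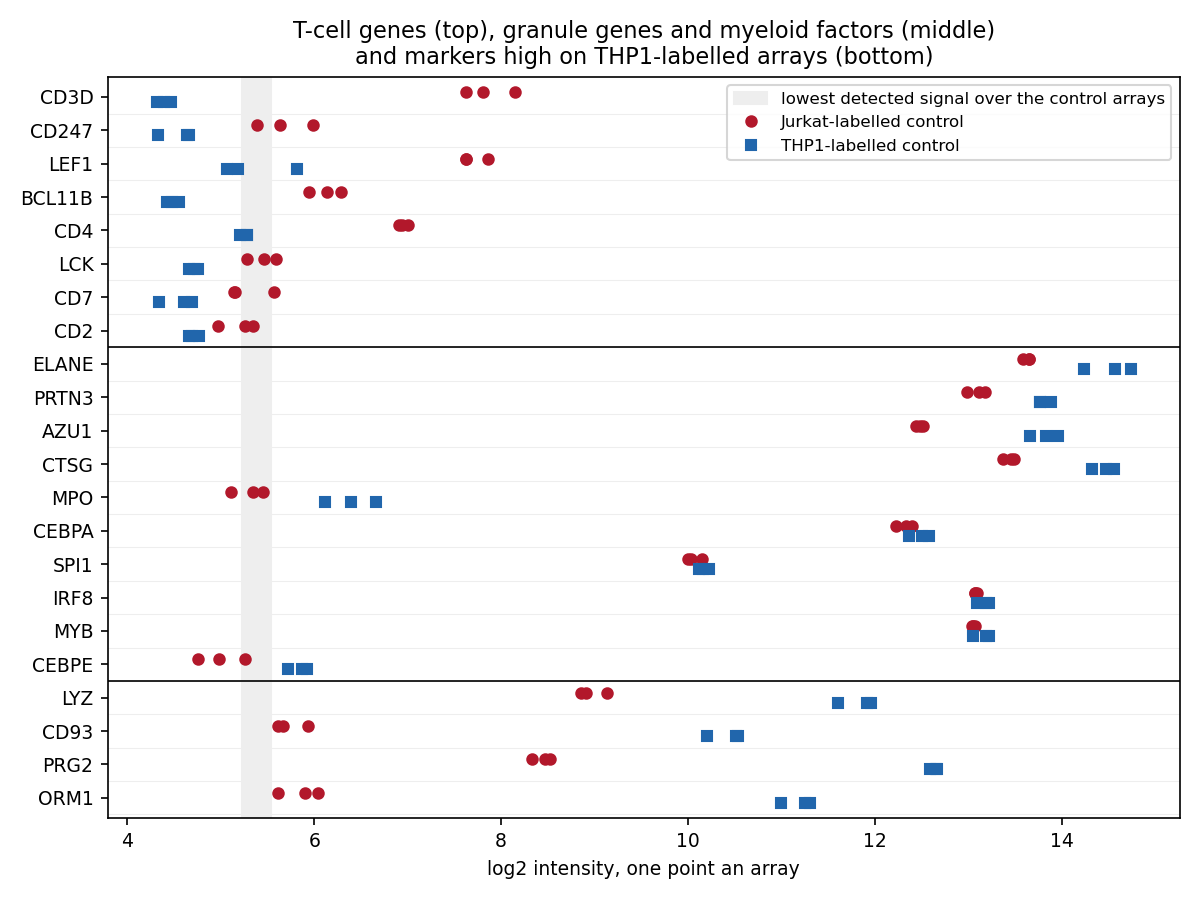
Log2 intensities (x axis) of 22 genes (rows) on the 3 Jurkat-labelled control arrays (circles, above) and the 3 THP1-labelled control arrays (squares, below), one point an array; the grey band spans the weakest detected signals, 5.23 to 5.53. The granule genes and myeloid factors other than MPO and CEBPE lie far to the right of the band under both labels, while CD3D, LEF1 and CD4 lie to the right of it on the Jurkat-labelled arrays.

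Of 18 azurophil granule genes, 16 had a probe and 15 were tested, and 14 were detected on all 3 arrays of each label. None was higher and 6 were lower on the Jurkat-labelled arrays, against 7.15% of all tested genes called higher and 6.06% called lower. The median difference over the 15 members was -0.45, and the count of lower members ran from 3 to 9 over the alternatives. AZU1 stood at 12.52, 12.44 and 12.48 on the Jurkat-labelled arrays and at 13.65, 13.83 and 13.95 on the THP1-labelled arrays, a difference of -1.33 ± 0.11 (SE). CTSG stood at 13.49, 13.45 and 13.37 against 14.55, 14.47 and 14.32 on the THP1-labelled arrays, and PRTN3 at 13.18, 13.12 and 12.99 against 13.88, 13.76 and 13.76. These groups did not overlap, and the differences were -1.01 for CTSG and -0.71 for PRTN3. With median scaling over the probes detected on all 18 arrays, the calls of ELANE, CTSG and PRTN3 were lost. MPO, the myeloperoxidase gene, was detected on 2 of 3 Jurkat-labelled arrays and all 3 THP1-labelled arrays and differed by -1.09 ± 0.16 (SE), a call that was lost without THP1 control 3. The largest difference of the list was that of LYZ, at 8.86, 8.91 and 9.13 on the Jurkat-labelled arrays and 11.95, 11.91 and 11.60 on the THP1-labelled arrays (-2.86 ± 0.13, SE, adjusted p = 1.44e-05). SRGN, the proteoglycan core of granules, did not pass (0.00 ± 0.12, SE). The summed intensity of the tested granule genes was 73770 to 77423 on the Jurkat-labelled arrays and 112730 to 119910 on the THP1-labelled arrays.

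The 150 bases before the annotated start are shown for 3 granule genes detected under both labels, for ORM1, the gene with the largest difference toward THP1, and for CD3D, to place letters that resemble the sites of PU.1 and C/EBP factors. Capitals mark GAGGAA (a PU.1-type core) and TTNNGNAA (a C/EBP-type motif), each searched on both strands with overlaps allowed. The sequences are those of RefSeq (GRCh38.p14), written 5′ to 3′ on the strand of the gene: AZU1 chr19:827687-827836 (plus), PRTN3 chr19:840849-840998 (plus), CTSG chr14:24576251-24576400 (minus), ORM1 chr9:114322948-114323097 (plus) and CD3D chr11:118342706-118342855 (minus).
AZU1: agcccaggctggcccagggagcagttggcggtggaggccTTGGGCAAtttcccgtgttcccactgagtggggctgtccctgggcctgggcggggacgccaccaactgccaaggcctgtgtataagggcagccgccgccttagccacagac
PRTN3: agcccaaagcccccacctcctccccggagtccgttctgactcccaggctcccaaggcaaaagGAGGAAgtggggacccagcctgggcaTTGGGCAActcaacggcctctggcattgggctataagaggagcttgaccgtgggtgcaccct
CTSG: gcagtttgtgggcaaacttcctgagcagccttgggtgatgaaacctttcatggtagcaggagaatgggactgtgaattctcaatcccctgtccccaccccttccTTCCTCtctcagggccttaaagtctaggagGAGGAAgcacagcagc
ORM1: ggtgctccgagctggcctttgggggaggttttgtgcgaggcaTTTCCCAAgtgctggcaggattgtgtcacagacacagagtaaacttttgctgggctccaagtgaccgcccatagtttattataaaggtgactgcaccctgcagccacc
CD3D: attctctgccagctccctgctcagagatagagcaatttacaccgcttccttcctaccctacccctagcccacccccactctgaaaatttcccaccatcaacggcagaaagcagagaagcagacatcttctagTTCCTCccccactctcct
AZU1 and PRTN3, neighbours on chromosome 19, each held 1 TTNNGNAA, and PRTN3 also 1 GAGGAA. CTSG held GAGGAA once on each strand, CD3D 1 GAGGAA on the opposite strand, and ORM1 1 TTNNGNAA on the opposite strand. Among 27305 promoters searched over the same 150 bases, 14.7% held GAGGAA and 20.4% TTNNGNAA. A match is only a string of letters.

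All 15 myeloid transcription factors with a probe were tested, and 14 were detected on all 3 Jurkat-labelled and 15 on all 3 THP1-labelled arrays. EGR1, an immediate early gene, and ID2, an inhibitor of helix-loop-helix factors, were higher on the Jurkat-labelled arrays. EGR1 stood at 10.82, 11.01 and 10.84 on the Jurkat-labelled arrays, against 8.17, 8.83 and 8.73 on the THP1-labelled arrays, a 4.97-fold difference (adjusted p = 0.000139). CEBPD and CEBPE, C/EBP factors of maturing myeloid cells, were lower by log2 differences of -0.65 and -0.84. Both calls were lost without THP1 control 2 or 3 or Jurkat control 3, that of CEBPD also without Jurkat control 1 and that of CEBPE without Jurkat control 2. The other 11 did not pass. Of all tested genes, 7.15% were called higher and 6.06% lower. IRF8, a factor of monocyte fate, stood at 13.07, 13.07 and 13.09 on the Jurkat-labelled arrays and at 13.22, 13.18 and 13.10 on the THP1-labelled arrays, and MYB differed by -0.10 ± 0.09 (SE). The summed intensity of the factors was 32950 to 33081 on the Jurkat-labelled arrays and 32948 to 34858 on the THP1-labelled arrays.

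Surface receptors and adaptors of myeloid cells differed in both directions. Of 38 listed, 27 were tested, of which 5 were higher and 8 lower on the Jurkat-labelled arrays, against 7.15% and 6.06% of all tested genes, and 23 of 35 with a probe were detected on all 3 Jurkat-labelled arrays against 22 on all 3 THP1-labelled arrays. CD93, a lectin-like receptor of monocytes and endothelium, stood at 5.61, 5.66 and 5.93 on the Jurkat-labelled arrays and at 10.21, 10.53 and 10.51 on the THP1-labelled arrays, a 25.6-fold difference (adjusted p = 2.48e-06). FCER1G, the shared signalling chain of Fc receptors, was 5.22-fold lower on the Jurkat-labelled arrays, CCR2, the receptor that draws monocytes out of the marrow, was 4.81-fold lower, and MNDA differed by -1.73. The 5 members higher on the Jurkat-labelled arrays, named after their values had been seen, were ITGAM, ITGAX, NCF1, FCGR1A and CD68. ITGAM, the alpha chain of the complement receptor CR3, differed by 1.33 and ITGAX by 1.14. FCGR1A, the high-affinity IgG receptor, stood 0.91 higher.

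Markers of other blood cells were mostly undetected. PRG2, which encodes the major basic protein of eosinophil granules, was an exception: its values were 8.47, 8.52 and 8.33 on the Jurkat-labelled arrays and 12.65, 12.66 and 12.59 on the THP1-labelled arrays (18.3-fold, adjusted p = 1.84e-06). EPX, CLC, CPA3 and HDC, which accompany it in eosinophils, basophils and mast cells, were detected on no control array, and 9 of 12 measured members of that list were undetected under each label. Of 13 B-cell genes measured, 10 were undetected on the Jurkat-labelled arrays and 10 on the THP1-labelled arrays, and IGLL1 was higher on the Jurkat-labelled arrays (1.02 ± 0.13, SE). Of 12 NK-cell genes, 8 were undetected under each label, and NKG7 was lower on the Jurkat-labelled arrays (-1.06 ± 0.09, SE). No erythroid or megakaryocyte gene passed among 4 tested. Over all tested genes, 7.15% were called higher and 6.06% lower, so nothing is read from the number of calls in lists this short. FLT3, the receptor kinase of early progenitors, stood at 5.81, 6.07 and 6.26 on the Jurkat-labelled arrays and at 9.52, 9.59 and 9.40 on the THP1-labelled arrays. The part that cells of another type may have in these differences was not tested.

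Over all tested probes, 2168 were called between the labels (11.1%), 1141 higher (5.86%) and 1027 lower (5.28%) on the Jurkat-labelled arrays, at p under 0.001 and a Benjamini-Hochberg adjusted p under 0.05. Median scaling over all probes moved the median of the differences to -0.12, against 0.00, and gave 590 higher and 1045 lower. Without Jurkat control 1, 2 or 3, the count was 1437, 1430 or 1440. By genes, 1470 of 11130 were called (13.2%), 796 higher and 674 lower. Differences of at least 2-fold were called for 797 probes (460 higher, 337 lower), and of over 4-fold for 118 (58 higher, 60 lower). Between 15761 and 17602 probes were detected per control array, 14378 on all 6 and 26753 on none. All 3 Jurkat-labelled and no THP1-labelled array detected 241 probes (0.51%), and all 3 THP1-labelled and no Jurkat-labelled array 161 (0.341%).

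**Figure D2:**
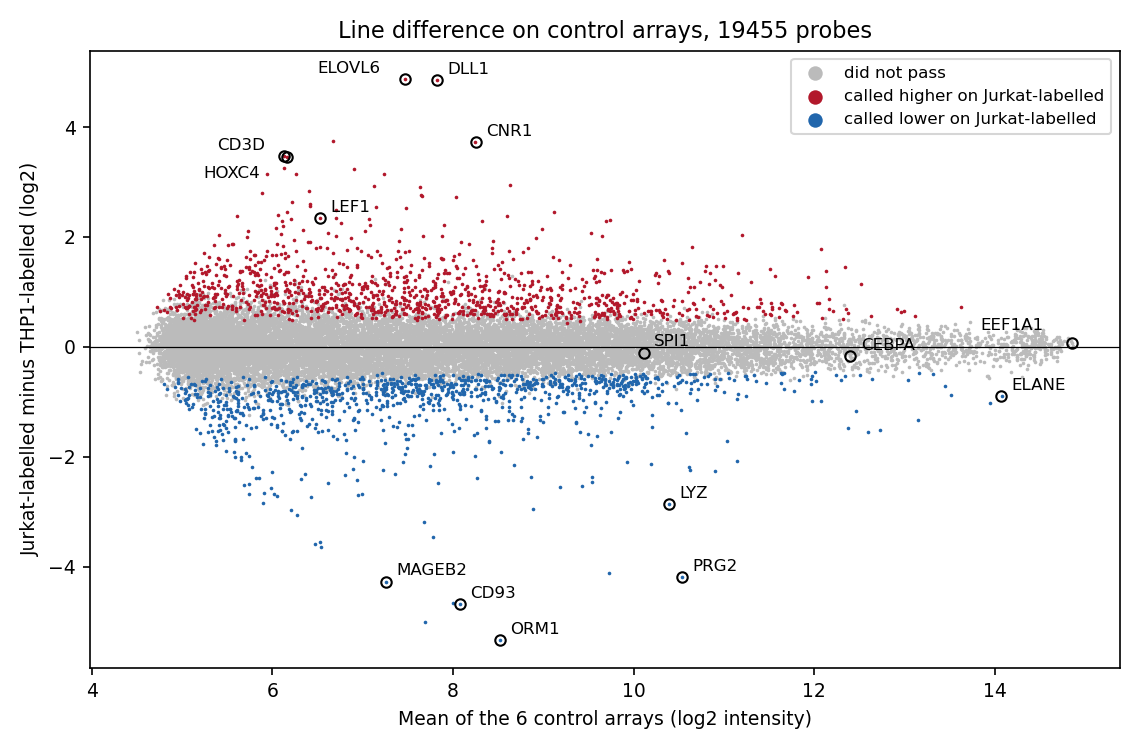
Difference between Jurkat-labelled and THP1-labelled control arrays (y axis, log2) against the mean of the 6 arrays (x axis, log2 intensity) for 19455 probes; colours mark the 1141 probes called higher and the 1027 called lower on the Jurkat-labelled arrays, and circles the named genes. Most probes lie in the grey band around 0, and CEBPA, SPI1 and EEF1A1 lie in it.

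The genes highest on the Jurkat-labelled arrays came from many functions. ELOVL6, an elongase of fatty acids, stood at 9.81, 9.98 and 9.93 on the Jurkat-labelled arrays and was not detected on the THP1-labelled arrays (4.68, 5.32 and 5.08), a difference of at least 23.05-fold (adjusted p = 3.80e-06). DLL1, a ligand of Notch receptors, stood at 10.20, 10.22 and 10.32 against 5.51, 5.37 and 5.30 on the THP1-labelled arrays, 2 of which detected it (28.9-fold, adjusted p = 1.48e-06). CNR1, a cannabinoid receptor, stood at 10.14, 10.17 and 10.03 on the Jurkat-labelled arrays and at 6.66, 6.25 and 6.24 on the THP1-labelled arrays. HOXC4, a homeobox gene, was at least 5.73-fold higher, as were the tetraspanin gene TSPAN7 (at least 5.21-fold) and the homeobox gene NKX2-2 (at least 5.49-fold). CGN, which encodes cingulin of tight junctions, differed by 3.24, the forkhead gene FOXD1 by 3.15 and the sulfotransferase gene CHST4 by 2.92. UBASH3B and DUSP1, phosphatases that damp tyrosine kinase and MAP kinase signals, differed by 2.91 and 2.76, and DZANK1 and ATP8B3 by 2.95 and 2.74. CCL3L3 (2.74 ± 0.14, SE) and CCL3 (at least 4.47-fold) encode near-identical chemokines, and their probes cannot be assigned to 1 copy with certainty. The groups of the 15 genes with the largest differences in each direction do not overlap by the rule that chose them, and groups did not overlap for 49.2% of the 11130 genes, from which nothing is read about those chosen.

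The genes with the largest differences downward on the Jurkat-labelled arrays were led by ORM1, an acute-phase glycoprotein of liver and myeloid granules, at 5.91, 5.61 and 6.04 on the Jurkat-labelled arrays and 11.25, 10.99 and 11.30 on the THP1-labelled arrays (40.2-fold, adjusted p = 2.06e-06). CD93, MAGEB2, PRG2 and BEX1 followed. MAGEB2, of the cancer-testis family on the X chromosome, was not detected on the Jurkat-labelled arrays (5.21, 5.05 and 5.11) and stood at 9.55, 9.42 and 9.22 on the THP1-labelled arrays, at least 17.2-fold apart. It was the only called member among 4 tested of 29 cancer-testis genes, 22 of which had no detection on any THP1-labelled array. Of all tested genes, 6.06% were called lower. BEX1, also X-linked, stood at 7.57, 7.50 and 7.94 against 11.69, 11.78 and 11.86 on the THP1-labelled arrays. UGT3A2, ARMCX1, B3GALNT1, KCNMB1 and ZNF256 were not detected on the Jurkat-labelled arrays and were at least 8.42-fold, 8.04-fold, 5.72-fold, 5.30-fold and 4.07-fold lower there. NAPSB and the adhesion gene NCAM2 differed by -3.19 and -2.95.

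AKR1C2, AKR1C3 and AKR1C4, aldo-keto reductases that convert steroids, were undetected on all 3 Jurkat-labelled arrays and detected on all 3 THP1-labelled arrays. Their bounds were at least 7.88-fold, 2.21-fold and 2.98-fold, and the close similarity of these genes means that the copy each probe measured is uncertain. NQO1, a quinone reductase, ran the other way, at 10.77, 10.84 and 10.89 on the Jurkat-labelled arrays and 8.85, 8.36 and 8.42 on the THP1-labelled arrays (4.90-fold, adjusted p = 5.48e-05). Of the 15 tested members of the list of reductases and glutathione enzymes, 4 were higher and 3 lower, against 7.15% and 6.06% of all tested genes.

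Genes of inflammation and defence differed one by one. Of 18 chemokine and cytokine genes tested, 4 were higher and 1 lower, against 7.15% and 6.06% of all tested genes. The lower one was TNF, at 6.88, 7.13 and 7.12 on the Jurkat-labelled arrays and 8.47, 9.29 and 9.10 on the THP1-labelled arrays. IL1B stood at 6.61, 6.70 and 6.89 against 5.49, 5.02 and 5.38 on the THP1-labelled arrays, 1 of which detected it. TLR4, the receptor of endotoxin, was not detected on the Jurkat-labelled arrays and at least 1.97-fold lower, while P2RX7, the ATP-gated channel, was higher by 1.53. Among 21 interferon-stimulated genes, 2 were higher (IFITM2 and IFITM3) and 4 lower, led by IFI27 (-2.70 ± 0.15, SE) and MX1 (-1.30 ± 0.13, SE), beside the same 7.15% and 6.06% of all tested genes. HLA-DRB1, HLA-DRB4 and HLA-DRB5 were higher by 0.83, 0.90 and 1.36, although probes of these genes may share transcripts, and HLA-DRA did not pass (-0.14). PSMB9, a subunit of the immunoproteasome, was higher by 1.36. TAP1 and TAP2, the peptide transporter, were higher by 0.61 and 0.56, but the call of TAP1 was lost without any 1 array and that of TAP2 without any 1 except Jurkat control 2. Of the adhesion genes, CD44 (2.39 ± 0.12, SE) and ICAM3 (1.54 ± 0.11, SE) were higher and ITGAL (-1.84 ± 0.11, SE) and ITGB7 (-1.53 ± 0.13, SE) lower. S100P, S100A9 and S100A6, calcium-binding proteins, were lower by log2 differences of -1.75, -1.17 and -0.95, and S100A10 was higher by 0.76, a call that was lost without Jurkat control 1 or 3. CDKN2A and MTAP, neighbours on chromosome 9 that leukaemias often lose, were detected on none of the 18 arrays.

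Much of the expression was shared. The means of the labels correlated at r = 0.977 across the 19455 probes, which are not independent replicates. The difference lay within 1 on the log2 scale for 95.7% of probes, and its whole 95% interval did so for 87.7% and lay within 0.5 for 38.0%. The 12 genes with the brightest probes among those last ones were EEF1A1, TPT1, RPS12, FTL, RPS29, RPL41, ACTG1, RPS6, TMSB4X, SRGN, OAZ1 and RPL9, which serve translation, the cytoskeleton, iron storage, polyamine control and, for SRGN, granule storage. EEF1A1, the elongation factor, stood at 14.86, 14.97 and 14.83 on the Jurkat-labelled arrays and at 14.83, 14.86 and 14.76 on the THP1-labelled arrays. Of 34 cytosolic ribosome genes tested none passed, with differences from -0.30 to 0.57, and of 26 proliferation genes none passed, with differences from -0.33 to 0.51. The same test called 13.2% of all tested genes. At other settings up to 2 ribosome and up to 6 proliferation genes were called higher. The median difference on the controls was 0.02 over the ribosome genes and 0.18 over the proliferation genes, against 0.01 over all genes. The summed intensity of the proliferation genes was 76365 to 79339 on the Jurkat-labelled and 69955 to 71487 on the THP1-labelled arrays. On the treated arrays, 7 of the 26 proliferation genes were called higher and none lower, and 4 ribosome genes were called lower and none higher. There, 11.6% of all tested probes were called higher and 11.1% lower. Of 27 genes of glycolysis and oxidative phosphorylation, PFKP and ENO2 were higher and the glucose transporter SLC2A3 lower (-1.44 ± 0.13, SE).

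A Jurkat-labelled and a THP1-labelled control array correlated at 0.967 to 0.974 (9 pairs), against 0.993 to 0.994 within the Jurkat-labelled controls and 0.988 to 0.993 within the THP1-labelled controls (3 pairs each). Jurkat-labelled GO arrays and Jurkat-labelled controls correlated at 0.944 to 0.958, below every pair of controls across the labels, and Jurkat-labelled GONH2 arrays and the same controls at 0.986 to 0.991. THP1-labelled GONH2 arrays and THP1-labelled controls correlated at 0.937 to 0.966, also below every such pair, and THP1-labelled GO arrays and the same controls at 0.973 to 0.982. By counts of altered transcripts, a different measure, the paper reports the reverse order for monocytes, with fewer under GONH2 than under GO. The reason for this difference was not tested. Over 4-fold differences from the Jurkat-labelled control were seen for 342 probes in GO and for 3 in GONH2, against the 118 between the untreated labels.

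**Figure D3:**
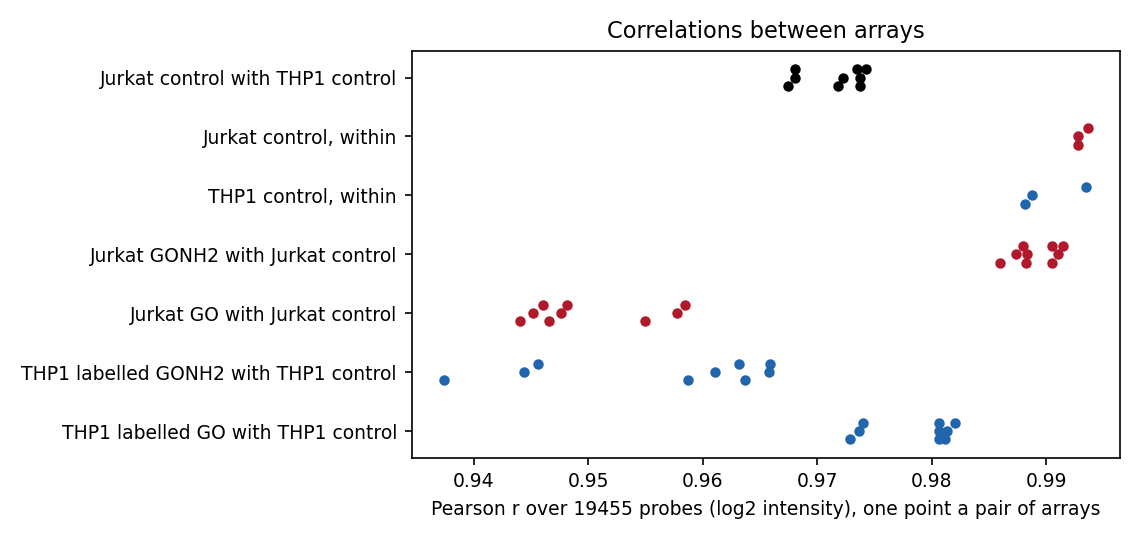
Pearson correlations over 19455 probes (x axis) for pairs of arrays, one point a pair, by kind of pair (rows). Pairs of 1 Jurkat-labelled and 1 THP1-labelled control lie at 0.967 to 0.974, left of the pairs of controls within a label and right of the pairs of Jurkat-labelled GO arrays, and of THP1-labelled GONH2 arrays, with their own controls.

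Called genes were unevenly spread over the chromosomes. On chromosome 7, 97 of 537 tested genes were higher on the Jurkat-labelled arrays (18.1%) and 8 lower (1.49%), with a median difference of 0.21. On chromosome 9, 10 of 444 were higher (2.25%) and 98 lower (22.1%), with a median of -0.33. Chromosome 17 had 58 higher and 11 lower of 663, chromosome 19 had 24 higher and 75 lower of 808, and chromosome 1 had 134 higher and 133 lower of 1141. Over all chromosomes, 7.15% of genes were higher and 6.06% lower.

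Within chromosomes, neighbouring genes differed in the same direction over long stretches. The median difference was taken over every 20 neighbouring tested genes, and 195 of 10673 such windows lay at or above 0.5 and 118 at or below -0.5. These windows merged into 12 runs, chosen by the values, so they are described without a test. The longest run higher on the Jurkat-labelled arrays, from TENT5C to S100A6 (chr1:117606048-153535991, GRCh38.p14), held 108 genes, 89 of them above 0, with 60 called higher and 4 lower. Its median difference was 0.76. Its highest window, chr1:150508109-151170296, ran from ECM1 to SCNM1 over 0.662 Mb: all 20 genes were above 0, 18 were called higher, and the median difference was 1.37, or 2.58-fold. The genes named in that window were chosen after their values had been seen. MCL1, a survival protein of the BCL2 family, stood there at 11.49, 11.59 and 11.57 on the Jurkat-labelled arrays and at 9.78, 9.76 and 9.67 on the THP1-labelled arrays. SETDB1, a histone methyltransferase, stood at 11.10, 11.08 and 11.06 on the Jurkat-labelled arrays and at 9.57, 9.64 and 9.86 on the THP1-labelled arrays. CTSS, a protease of antigen processing, stood at 8.13, 8.22 and 8.11 on the Jurkat-labelled arrays and at 7.01, 6.65 and 6.45 on the THP1-labelled arrays. CGN lies in the same run, and so do FCGR1A and S100A10, while S100A9 and S100A6 at its end were lower.

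Chromosome 1 held 2 more runs higher on the Jurkat-labelled arrays: PTPRF to RNF11 (54 genes, 24 called higher and none lower, median 0.59) and AMY2A to ATP5PB (38 genes, 19 called higher and none lower, median 0.52), with the glutathione transferases GSTM4, GSTM2 and GSTM1. It also held 2 runs with negative medians, SCYL3 to UBE2T (80 genes, 26 called lower and 1 higher, median -0.48), with PTPRC (CD45, -0.84), and PAX7 to USP48 (26 genes, 12 called lower and 2 higher, median -0.54). Chromosome 7 held 3 runs with positive medians, from FAM20C to MRM2 (20 genes, 5 called higher and none lower, median 0.51), from FAM221A to HERPUD2 (36 genes, 14 called higher and none lower, median 0.46) and from OR2A9P to DYNC2I1 (53 genes, 24 called higher and 2 lower, median 0.68), the last with the histone methyltransferase gene EZH2 (0.85). On chromosome 12 the run from CMAS to ASB8 (chr12:22046218-48157515) held 55 genes, 40 of them below 0, with 22 called lower, 2 called higher (BCAT1 and IRAG2) and a median of -0.55. On chromosome 9 the run from ANKRD18A to IARS1 held 60 genes, 49 of them below 0, with 23 called lower, 1 called higher (GAS1) and a median of -0.50. Among the lower ones were the kinase gene SYK (-1.14) and the annexin gene ANXA1 (-1.37). The run NQO1 to WDR59 on chromosome 16 (33 genes, 14 called higher and 2 lower, median 0.49) held both NQO1 and CHST4. The run from ZNF772 to ZNF584 on chromosome 19, mostly zinc finger genes, held 25 genes, 20 of them below 0, with 7 called lower, ZNF256 among them, none called higher and a median of -0.49.

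For each run the median over its genes was also taken on each array, after centring every gene over the 6 controls and every array on its median. The choice of the runs on these same arrays sets the labels apart, so the values are a description. In the run from TENT5C to S100A6 the Jurkat-labelled arrays lay between 0.36 and 0.37 and the THP1-labelled arrays between -0.43 and -0.33. DNA copy number was not measured on these samples.

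**Figure D4:**
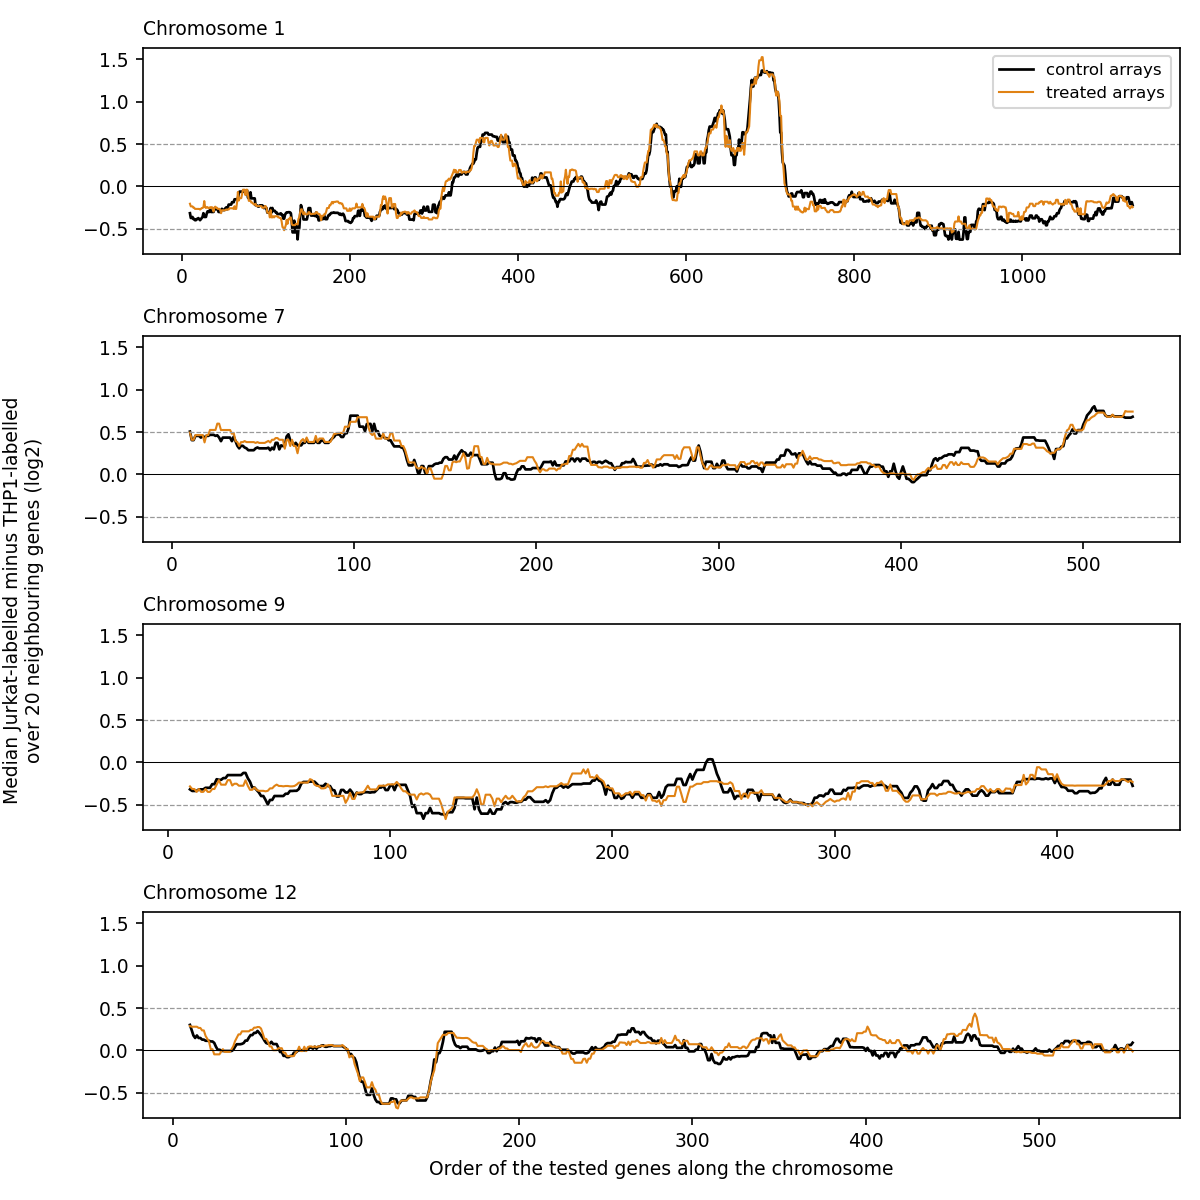
Median difference between Jurkat-labelled and THP1-labelled arrays over 20 neighbouring tested genes (y axis, log2) along the gene order of chromosomes 1, 7, 9 and 12 (x axis), on control and on treated arrays; dashed lines mark 0.5 and -0.5. The curve of chromosome 1 reaches 1.37 on control arrays, chromosome 9 lies below 0 over most of its length, and the curve of the treated arrays runs close to that of the controls.

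The 12 treated arrays gave a comparison of the same labels with no array in common. The mean of GO and GONH2 was compared between the labels, which does not depend on which of the materials a THP1-labelled array received. On these arrays 4406 probes were called (22.6%), 2256 higher and 2150 lower, or 1843 higher and 2675 lower with each line normalized separately. Of the 1141 probes higher on the untreated Jurkat-labelled arrays, 913 were called higher again (80.0%), and of the 1027 lower, 743 were called lower again (72.3%). Another 2 were called in opposite directions and 510 were called only on the controls. All 118 probes that differed over 4-fold were called in the same direction. Across all tested probes the differences on treated and on control arrays correlated at r = 0.787.

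ELOVL6 ranged from 9.89 to 10.10 (median 10.06) on the 6 treated Jurkat-labelled arrays and from 4.80 to 5.69 (median 5.32) on the 6 treated THP1-labelled arrays. PRG2 ranged from 8.29 to 8.71 (median 8.52) on the treated Jurkat-labelled arrays and from 12.32 to 12.85 (median 12.53) on the treated THP1-labelled arrays. CEBPA and SPI1 differed by -0.09 each and did not pass again, and ELANE (-0.22) and PRTN3 (-0.31), called on the controls, did not pass on the treated arrays. In the run from TENT5C to S100A6 the median difference was 0.71 on the treated arrays, in that of chromosome 12 it was -0.47, and in that of chromosome 9 it was -0.43. The labels did not overlap on treated arrays in 11 of the 12 runs. In the run from FAM20C to MRM2 the lowest Jurkat-labelled array (-0.03) lay below the highest THP1-labelled array (0.02). The runs were chosen for large differences between the labels on the controls. No such count was made over the other windows, so nothing is read from this one.

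**Figure D5:**
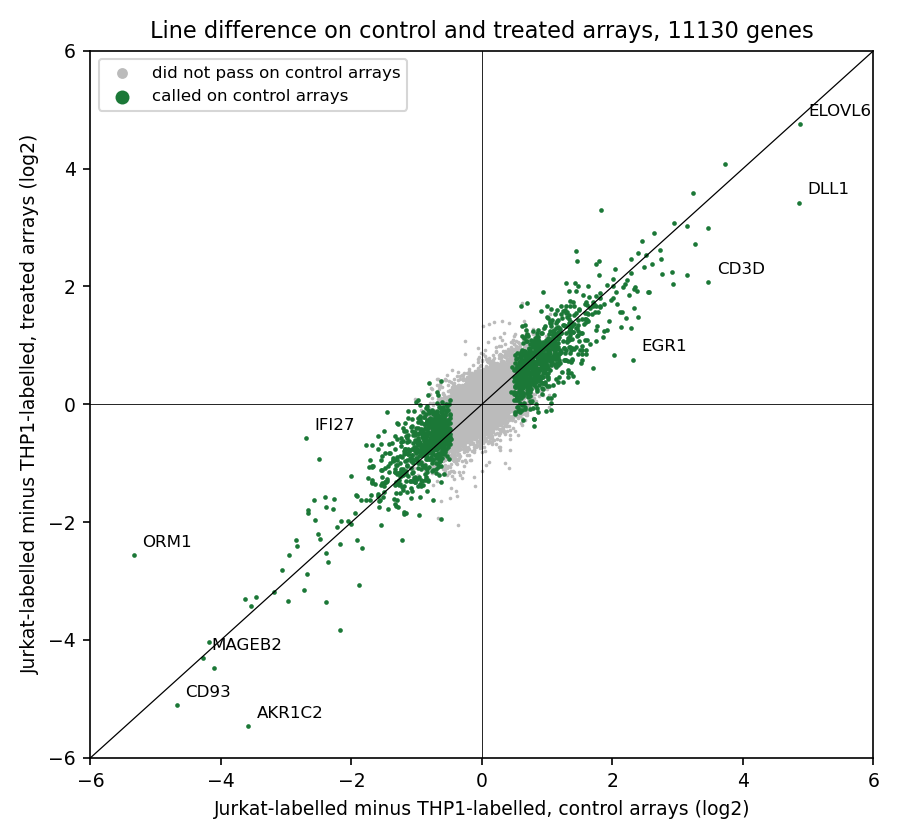
Difference between Jurkat-labelled and THP1-labelled arrays on the 12 treated arrays (y axis, log2) against the same difference on the 6 control arrays (x axis, log2), one point a gene, for 11130 genes; green points were called on the controls and the line marks equal values. ORM1 and IFI27 lie above the line at the left and AKR1C2 below it.

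The difference between the labels itself depended on treatment for 464 probes (2.38%), 207 upward (1.06%) and 257 downward (1.32%), or 70 upward and 21 downward with median scaling over all probes. Without Jurkat control 1 the count was 253 and without Jurkat control 2 it was 301, and it was 296 without Jurkat control 3. ORM1 moved most among the named genes. On the treated THP1-labelled arrays it ranged from 7.40 to 8.22, against 10.99 to 11.30 on the THP1-labelled controls, and on the treated Jurkat-labelled arrays from 4.73 to 6.00. Its difference between the labels was -2.56 on treated arrays and -5.33 on controls. CD3D ranged from 4.88 to 7.63 on the treated Jurkat-labelled arrays, 5 of which detected it.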

How the data were processed

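Log2 intensities were computed from the deposited non-normalized table, in which the authors gave for each of 18 Illumina HumanHT-12 v4 arrays an intensity and a detection p-value per probe, as exported from GenomeStudio. A second deposited table held the authors' normalized intensity values, whose kind of normalization is not given in the sources used here, and served as an alternative. RNA had been extracted with TriZol and RNeasy columns. With limma 3.58.1 in R 4.3.3, background was corrected from the detection p-values, an offset of 16 was added, and the arrays were quantile-normalized together (neqc) and put on the log2 scale, which compresses differences of dim probes. Of 47217 probes, the 19455 whose detection p fell below 0.01 on 3 or more of the 18 arrays were tested. The 6 controls were fitted with limma's moderated test, and probes at p under 0.001 and a Benjamini-Hochberg adjusted p under 0.05 over all tested probes were called. A gene was represented by its probe of highest mean, and gene symbols came from the platform annotation, with 1 symbol for 30106 probes, several for 8 and none for 17103. The 12 treated arrays were fitted in the same way, and the change of the line difference over all 18. Precision is limited by having 3 arrays in each group.

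Named were the 15 genes with the largest called differences in each direction, the 12 brightest genes whose 95% interval lay within 0.5 on the log2 scale, 10 marker genes, up to 4 called members of each list by size of difference, and any measured member of the lists of T-cell receptor genes, myeloid factors and azurophil granule genes. The 15 in each direction also needed groups that did not overlap and detection on every array of the higher group. XIST and Y-linked genes were left out of them. Genes outside this rule (such as ITGAM, ITGAX, NCF1, FCGR1A and CD68, undetected genes, and genes given for their position) were chosen after their values were seen. Members and lists were chosen with earlier results of these data known. The alternatives covered the background correction, offset, scaling, filter, variance model, call rule, replicate block and the removal of each array. The fit was also run on simulated data, with known changes added to noise drawn independently for each probe and array. Such noise cannot show how errors shared across an array would act on the calls.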

Additional observations from a re-analysis of the deposited data

Results flagged for a closer look

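For 23 named genes the log2 difference between the labels, Jurkat-labelled minus THP1-labelled, was itself different on the treated arrays and on the controls, by the limma test of that change over 18 arrays. The values are the difference on treated arrays minus that on controls. It was positive for ELANE (0.67), ORM1 (2.77), CCR2 (0.66), MNDA (0.66), SPP1 (1.04), IL1B (1.17), TLR4 (1.09), IFI27 (2.12) and IFITM3 (0.96). It was negative for CD3D (-1.40), DLL1 (-1.43), FOXD1 (-0.96), CHST4 (-0.88), AKR1C2 (-1.88), EGR1 (-1.56), PSMB9 (-0.84), INPP5D (-0.99), CD44 (-0.91), ITGAL (-0.59), AKR1C4 (-1.64), AKR1C3 (-1.18), MT1X (-1.31) and ENO2 (-0.71). The call rule was the one used for the lines, which called this change for 2.38% of all tested probes. Many of the 124 named genes were chosen for large differences on the controls. Those controls also enter the change, so the 23 genes cannot be weighed against that share.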

How the results depend on the processing

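Of the 90 called named genes, 65 passed under every alternative in which they were tested, 25 lost the call under at least 1, and none reversed. Only 58 of them were tested among probes detected on all 6 controls and 88 among those detected on at least 3, and the mean of a gene's probes was run for the count of calls only. The count of 2168 probes between the untreated labels became 3438 (1729 higher, 1709 lower) without background correction, 3471 (1738 higher, 1733 lower) with the authors' normalized values, 3399 (1714 higher, 1685 lower) with limma-trend, 5064 (2486 higher, 2578 lower) with the adjusted p alone and 797 (460 higher, 337 lower) with at least 2-fold required. Median scaling over all probes gave 590 higher and 1045 lower. Without single arrays the count was 1430 to 1887 (765 to 1005 higher, 663 to 882 lower). On treated arrays the count of 4406 became 7910 (3965 higher, 3945 lower) with the adjusted p alone and 784 (442 higher, 342 lower) with at least 2-fold required, and 3780 to 4478 without single arrays (1937 to 2289 higher, 1818 to 2189 lower). The count of 464 for the change became 91 (70 upward, 21 downward) with median scaling over all probes, 726 (336 upward, 390 downward) with the authors' values, and 253 to 560 without single arrays (103 to 226 upward, 150 to 334 downward). The cause was not tested. The lines share replicate numbers, but the labels do not pair them. The deviations of same-numbered controls from the mean of their own label correlated at 0.080, 0.033 and 0.097, so the numbers were not used. A replicate block gave 1606 calls between the untreated labels, 4293 on treated arrays and 497 for the change. The medians of the 12 runs were also recomputed under 23 settings, an alternative chosen after seeing the data; that from TENT5C to S100A6 ranged from 0.48 to 0.88. The runs were chosen for the size of these medians, so their signs say nothing of stability. Signals near the detection limit, 5.23 to 5.53 on the log2 scale, bound the folds of undetected genes.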
